A study of Mus musculus with 816 samples.

Results

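Transcript levels of 3 agonists of the interleukin 1 (IL1) family and of 3 of their natural antagonists were followed in mouse microglia. The genes were chosen by symbol: Il1a, Il1b and Il18 encode the agonists IL1α, IL1β and IL18, and Il1rn, Il1r2 and Il18bp encode the receptor antagonist, the decoy receptor and the IL18 binding protein. All 6 had a row in both expression tables, which held 45581 gene rows for cultures and 29858 for mice. In the study, 3′-end RNA sequencing was applied to 784 cultures of commercial primary neonatal mouse microglia, stimulated 4 days after plating, and to microglia isolated from 32 mice. The cultures came from 3 cell lots on 10 culture plates and made up 98 groups of stimulus and time (4, 24 or 72 h), and each condition was compared with untreated cultures (40 at 24 h, 25 at 72 h).

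The stimuli that the results turn on were lipopolysaccharide (LPS) at 0.0001 µg/µl (LPS_hi) or 0.00001 µg/µl (LPS_lo), the synthetic bacterial lipopeptide Pam3Cys (P3C, 0.001 µg/µl) and polyIC, a synthetic double-stranded RNA labelled IC (0.2 µg/µl). Interferons were given as IFNa (0.0008 µg/µl), IFNb (0.0001 µg/µl) and IFNg (0.0001 µg/µl), and the cytokines IL4, IL10 and IL13 each at 0.00005 µg/µl. Prostaglandin E2 (PGE2) was given at 0.001 µg/µl, TNFa at 0.000004 µg/µl, GMCSF at 0.000005 µg/µl, ATP at 1000 µM, resveratrol at 50 µM and norepinephrine at 1 µM. Also named below are TGFb (0.0001 µg/µl), GABA (100 µM), glutamate (500 µM) and Valproic Acid (1000 µM). The mice were C57BL/6. In the LPS experiment 4 females of 2 months received 2 mg/kg LPS intraperitoneally and 4 received PBS, and microglia were taken after 4 h. In the aging experiment 13 naive males of 22 months were compared with 11 of 2 months. The microglia of all mice were enriched with CD11b beads, which also bind other myeloid cells.

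IL1α and IL1β bind the same receptor and signal through MyD88 and NF-κB. The receptor antagonist occupies that receptor without signalling, and the decoy receptor encoded by Il1r2 binds IL1 but lacks a signalling domain. IL1β and IL18 are made as inactive precursors that caspase-1 cleaves within inflammasomes, and IL18 is neutralised by its binding protein. In the brain, microglia are a main source of IL1 during inflammation. The values here are transcript levels, so they carry no information on cleavage or release of the proteins.

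The 6 genes lie on 4 chromosomes (GRCm38). Il1a (ENSMUSG00000027399, chr2:129299610-129309972, minus strand) and Il1b (ENSMUSG00000027398, chr2:129364570-129371139, minus strand) are neighbours, and Il1rn (ENSMUSG00000026981, chr2:24336853-24351494, plus strand) lies elsewhere on the same chromosome. Il18 (ENSMUSG00000039217) spans chr9:50554827-50581840 on the plus strand, Il18bp (ENSMUSG00000070427) chr7:102014885-102018690 on the minus strand and Il1r2 (ENSMUSG00000026073) chr1:40074079-40125231 on the plus strand. Il1a, Il1b, Il18, Il1r2 and Il18bp each overlap an annotated gene on the opposite strand (for Il18bp the end of Numa1). In the study Salmon detected the library type automatically, and whether strand separated the reads of such pairs was not tested.

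The promoters of Il1a and Il1b, the pair that moved most under LPS, and those of Il1rn and Il18bp, which also moved under interferons, are printed from 250 bases before to 50 bases after the annotated start (RefSeq, GRCm38.p6). In gene order they are chr2:129309923-129310222 (minus strand), chr2:129371090-129371389 (minus), chr2:24336610-24336909 (plus, the first of 3 annotated starts) and chr7:102018183-102018482 (minus). Capitals mark a match to 1 of 4 motifs searched on both strands.
Il1a: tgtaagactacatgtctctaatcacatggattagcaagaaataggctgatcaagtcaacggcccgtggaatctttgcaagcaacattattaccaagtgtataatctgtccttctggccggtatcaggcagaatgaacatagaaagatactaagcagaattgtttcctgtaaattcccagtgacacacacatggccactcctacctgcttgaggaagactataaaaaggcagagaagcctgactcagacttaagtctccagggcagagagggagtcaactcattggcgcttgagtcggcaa
Il1b: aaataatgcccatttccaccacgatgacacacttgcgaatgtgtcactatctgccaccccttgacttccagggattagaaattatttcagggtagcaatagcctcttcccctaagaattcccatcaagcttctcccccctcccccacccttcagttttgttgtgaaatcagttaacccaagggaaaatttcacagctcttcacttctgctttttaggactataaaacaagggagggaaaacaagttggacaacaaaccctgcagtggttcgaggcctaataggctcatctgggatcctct
Il1rn: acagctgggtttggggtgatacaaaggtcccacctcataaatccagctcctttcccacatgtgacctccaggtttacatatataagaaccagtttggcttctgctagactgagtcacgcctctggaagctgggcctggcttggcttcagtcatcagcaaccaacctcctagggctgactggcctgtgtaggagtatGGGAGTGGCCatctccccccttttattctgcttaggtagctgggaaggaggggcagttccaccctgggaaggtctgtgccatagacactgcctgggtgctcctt
Il18bp: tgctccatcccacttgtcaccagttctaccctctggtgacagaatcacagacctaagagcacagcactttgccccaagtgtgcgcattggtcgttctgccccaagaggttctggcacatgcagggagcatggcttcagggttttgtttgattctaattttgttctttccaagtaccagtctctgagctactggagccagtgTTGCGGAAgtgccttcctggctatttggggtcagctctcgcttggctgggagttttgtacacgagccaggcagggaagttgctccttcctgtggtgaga

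The motifs were an NF-κB motif (GGGA, any 4 bases, CC), a C/EBP motif (TTGCGNAA), an interferon-stimulated response element (GAAA, any 2 bases, GAAA) and a GAS motif (TTCNNNGAA). They were present in 20.7%, 0.798%, 3.44% and 8.3% of 32851 promoter windows of the same length. All 6 genes matched a promoter entry. Il1rn held 1 NF-κB match with its first base 54 bases before the start, Il18bp held 1 C/EBP match 49 bases before it, and Il1r2 held 1 GAS match. None of the 4 motifs was found in the windows of Il1a, Il1b and Il18, and none of the 6 genes held the response element.

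Library depth ranged from 1.00 M to 38.2 M mapped reads in cultures (median 4.67 M, with M for mega) and from 2.36 M to 7.78 M in mice, and levels are given as reads of a gene per 1 M mapped reads (CPM). Of 8 microglial markers (Tmem119, P2ry12 and others), all were detected in untreated cultures, with a summed level of 3581 to 9234 CPM at 24 h and of 884 to 2831 CPM under LPS_hi. In these bulk samples fewer cells of a type and less RNA per cell cannot be told apart. Of the polyIC cultures of 24 h, 1 of 8 (replicate 5) had member levels like those of P3C cultures (Il1a 1056 CPM, Il18bp 3.36 CPM), against 1.89 to 51.2 CPM and 40.5 to 76.0 CPM in the other 7, so results of that group are given with and without it. The group given TNFa alone for 72 h held 3 cultures of 1 plate with 1.98 M to 2.36 M reads. Against untreated cultures 1900 of 16935 genes were higher and 2798 lower in it.

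Untreated levels of the IL1 agonists depended on the culture plate. At 24 h Il1a was 0, 32.3 and 192 CPM (lowest, median and highest of 40 cultures) and Il1b 0, 9.22 and 65.3 CPM. The 10 cultures of plate MGm160926B held the upper end, with 120 to 192 CPM of Il1a and 39.2 to 65.3 CPM of Il1b, whereas the plate medians of the other 5 plates were 6.16 to 41.7 and 1.60 to 11.6 CPM. Plate medians of the antagonist Il1rn ranged from 13.5 to 30.9 CPM, of Il18 from 3.73 to 8.09 CPM and of Il18bp from 3.26 to 5.76 CPM. The plot of untreated cultures by plate shows that the high plate stood apart for the 2 IL1 agonists. Each change below is therefore given with the model without a plate term, and values with the plate in the model are given where they change the call or differ by a log2 unit or more.

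**Figure D1:**
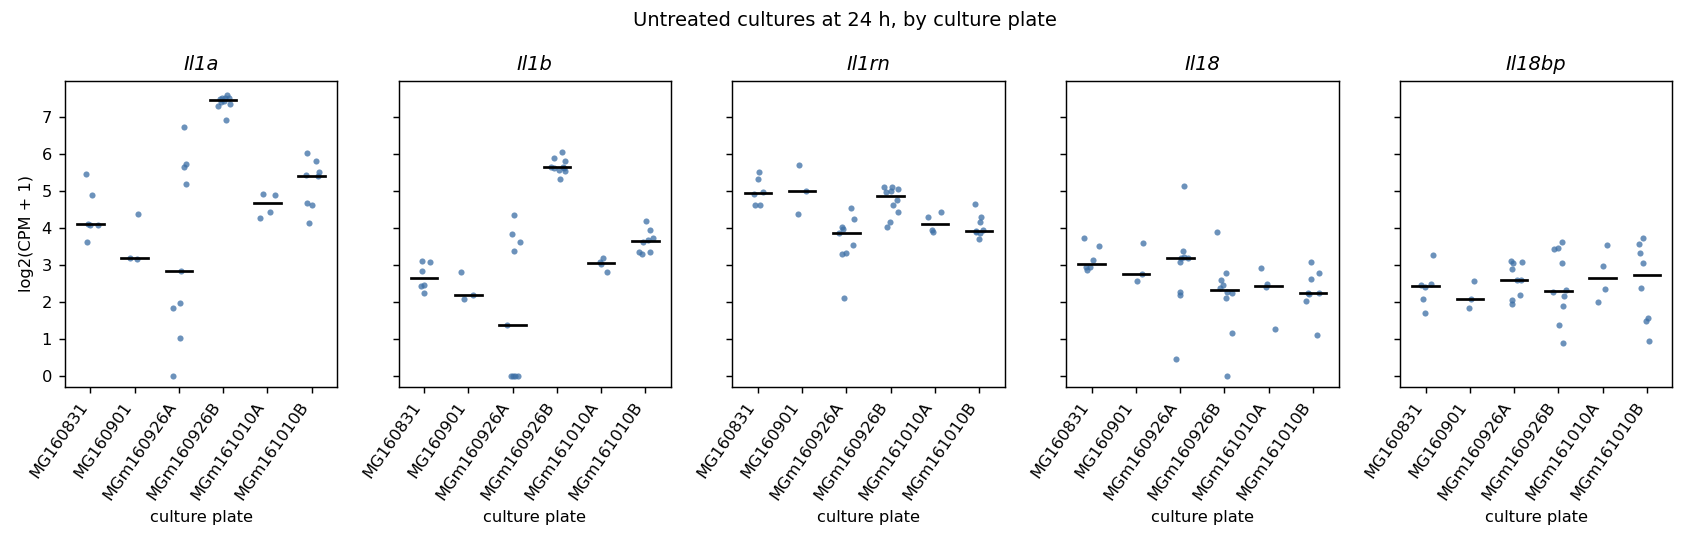
Levels of 5 genes, as log2(CPM + 1), in the 40 untreated cultures of 24 h, split by culture plate on the x axis. Each point is a culture and each line a plate median, and plate MGm160926B sits above the other plates for Il1a (120 to 192 CPM) and Il1b (39.2 to 65.3 CPM).

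In the 44 conditions of 24 h, the 6 genes passed the test (limma, adjusted p under 0.05 and a log2 change of at least 1) upward in 54 of 264 tests and downward in 22, against 1.54% and 3.12% of tests over all genes. By gene, Il1a was higher in 10 and lower in 9 conditions, Il1b in 11 and 10, Il18 in 9 and 1, Il1rn in 13 and 1, Il18bp in 11 and 1, and Il1r2 in none. With the plate in the model 55 tests were higher and 1 was lower, where 2.98% of all tests were lower. All 19 lower calls of Il1a and Il1b were lost, among them those under ATP, IL10, IL13, TGFb and glutamate. The lower call that remained was Il18 under P3C.

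In the 42 conditions of 72 h, 62 of 252 tests were higher and 13 lower, against 2.98% and 3.8% of all tests, and 66 and 13 with the plate in the model. Il1b was higher in 18 conditions, Il1rn in 17, Il18bp in 15, Il1a in 11 and Il18 in 1, and the lower calls were 6 of Il18bp, 5 of Il18 and 2 of Il1a. In the 9 conditions of 4 h, 21 of 54 tests were higher and 1 lower, against 2.68% and 8.8% of all tests. Untreated cultures of 24 h served as the reference there, since no untreated culture is labelled 4 h. The conditions of a time share their untreated cultures, so their calls are not independent of each other. The map of changes by condition shows Il1a and Il1b red together under LPS and P3C, Il18bp red under interferons and the Il1r2 row near 0.

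**Figure D2:**
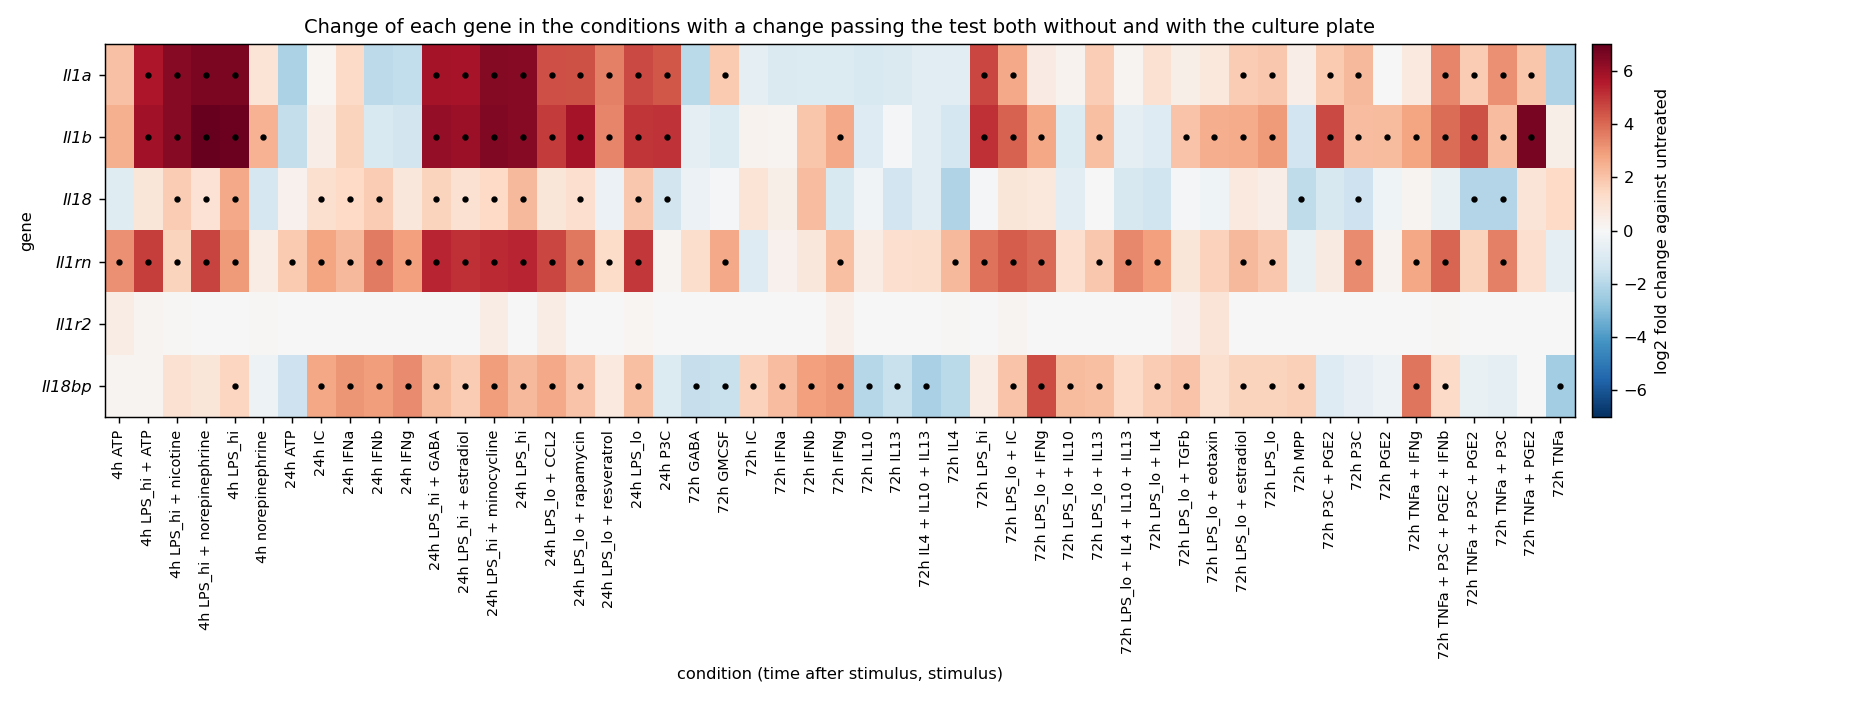
Log2 fold change of the 6 genes against untreated cultures (colour) in the 51 conditions in which at least 1 gene passed the test in the same direction both without and with the culture plate in the model. The x axis gives time and stimulus, and black dots mark the 138 gene and condition pairs that passed in both models.

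LPS raised both IL1 agonists and their antagonist. After 24 h of LPS_hi Il1a was 1224, 2630 and 5470 CPM (lowest, median and highest of 18 cultures), Il1b 419, 814 and 2819 CPM, and Il1rn 301, 777 and 1852 CPM. Untreated Il1rn was 3.32, 19.3 and 51.1 CPM, and for all 3 genes the lowest LPS culture lay above the highest untreated culture. The log2 changes were 6.35 ± 0.39 (SE) for Il1a, 6.36 ± 0.32 for Il1b and 5.35 ± 0.31 for Il1rn, with limma adjusted p = 3.6e-48, 9.4e-68 and 5.1e-53. In this comparison 5.25% of all genes were higher.

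The IL18 pair moved less. Il18 was 9.92, 32.4 and 54.0 CPM under LPS_hi and 0, 5.06 and 34 CPM in untreated cultures, with overlapping ranges. Il18bp was 10.1, 29.3 and 141 CPM against 0.845, 4.39 and 12.4 CPM, also with overlap. The log2 changes of Il18 and Il18bp were 2.27 ± 0.29 and 2.29 ± 0.31 (limma adjusted p = 3.0e-13 and 1.8e-11). Il1r2 was at 0 CPM in all 18 cultures.

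**Figure D3:**
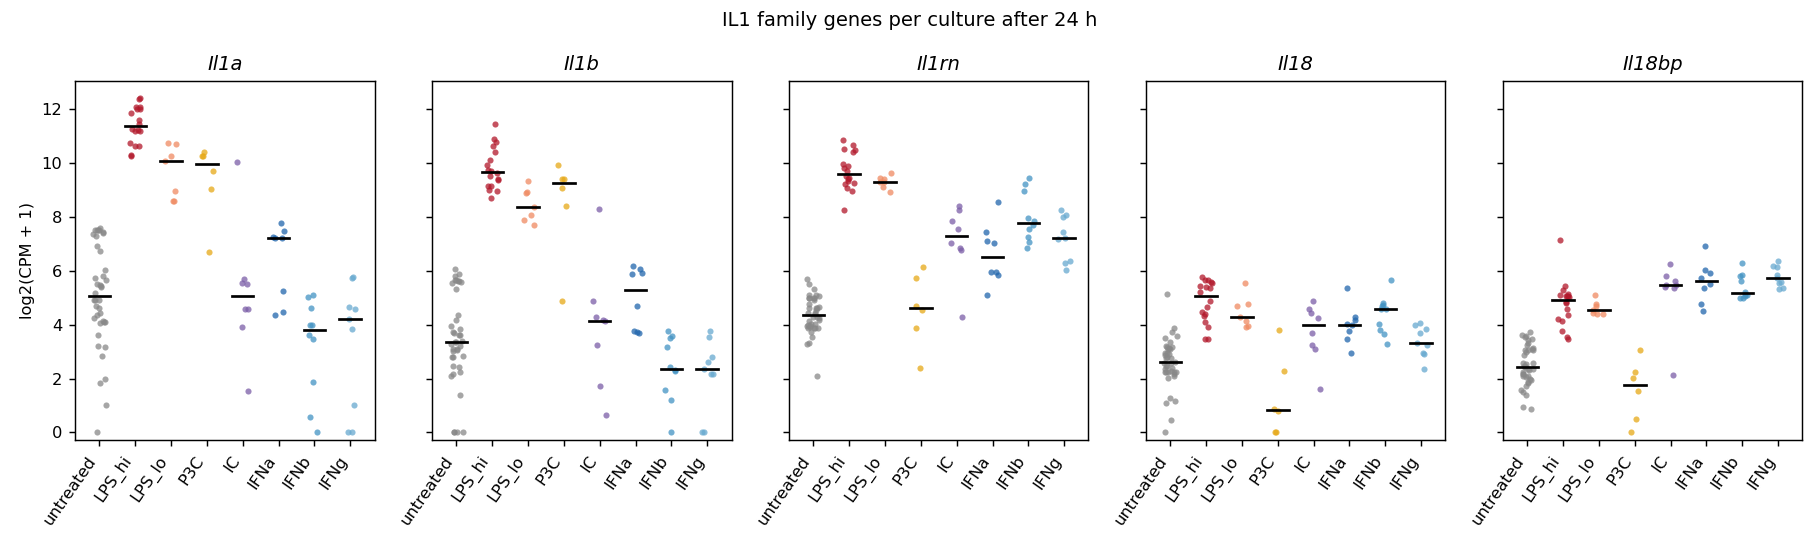
Levels of 5 genes, as log2(CPM + 1), in single cultures after 24 h without stimulus or with LPS_hi, LPS_lo, P3C, polyIC (IC) or an interferon. Each point is a culture and each line a group median, and Il1rn and Il18bp are high under LPS, polyIC and interferons but near untreated under P3C.

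At the lower dose for 24 h Il1a was 380, 1071 and 1696 CPM, Il1b 206, 330 and 638 CPM, and Il1rn 480, 630 and 788 CPM (7 cultures). Il18 was 14.1, 18.7 and 45.3 CPM, and Il18bp 19.8, 22.0 and 33 CPM. The dose comparisons at 24 and 72 h gave 3 higher calls of 12 (0.348% of all tests), all at 72 h: Il1a 2.77 ± 0.56, Il1b 2.16 ± 0.46 and Il1rn 1.96 ± 0.45 in log2 (limma adjusted p = 1.7e-04, 3.8e-04 and 0.0013). At 24 h LPS_hi exceeded LPS_lo by 1.70 ± 0.61 for Il1a and 1.35 ± 0.50 for Il1b without passing (limma adjusted p = 0.37 and 0.41). With the plate in the model both passed, at 2.62 and 2.40. On plate MGm160926B mean log2(CPM + 1) of Il1a was 11.8 with LPS_hi and 10.6 with LPS_lo, and of Il1b 10.1 and 9.04. On MGm161010B it was 10.5 and 9.05 for Il1a, and 9.30 and 8.01 for Il1b. Within each of these plates LPS_hi was higher, but by less than with the plate in the model.

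The antagonist Il1rn was lower at 4 h than at 24 h, which did not hold for the agonists on every plate. At 4 h of LPS_hi Il1a was 2096, 2570 and 5185 CPM and Il1b 881, 1401 and 1881 CPM (7 cultures). For both genes this was within the range of the 24 h levels. The order of 4 h and 24 h differed between the plates that held both. On MGm161010A Il1a was 2096 to 2570 CPM at 4 h and 4337 to 5470 CPM at 24 h, and Il1b 881 to 1401 and 1914 to 2819 CPM (4 and 2 cultures). On MGm160926B Il1a was 4594 to 5185 CPM at 4 h and 2376 to 5330 CPM at 24 h, and Il1b 1443 to 1881 and 843 to 1359 CPM (3 and 2 cultures). Il1rn was 74.5, 151 and 279 CPM at 4 h, and no 4 h culture reached the lowest level of 24 h, on either plate or over all. Il18 was 21.1, 36 and 93.7 CPM and Il18bp 5.90, 13.3 and 56.5 CPM at 4 h. By 72 h Il1a was 27.1, 245 and 1207 CPM, Il1b 32.8, 127 and 563 CPM, and Il1rn 4.98, 38.5 and 265 CPM (13 cultures). The LPS_hi cultures of 72 h were on other plates than those of 4 and 24 h. Levels at different times are set side by side without a test.

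The log2 changes against untreated at 4 h were 6.58 ± 0.56 for Il1a, 6.86 ± 0.46 for Il1b, 2.97 ± 0.45 for Il1rn, 2.63 ± 0.42 for Il18 and 1.51 ± 0.45 for Il18bp, and all passed. At 72 h those of Il1a, Il1b and Il1rn were 4.66 ± 0.47, 5.12 ± 0.38 and 3.82 ± 0.37 and passed. Il18 (8.61 CPM at the median, 13.5 in untreated) and Il18bp (24.3 and 10.6 CPM) did not pass at 72 h, with log2 values of −0.07 and 0.51. For Il18bp the direction differed between plates: LPS_hi cultures were at 0 to 7.54 CPM and untreated cultures at 11.1 to 58.9 CPM on MGm161010D, whereas on MGm161010C the medians were 55.3 and 7.77 CPM. Differences between the 24 h and 72 h changes were tested for the 25 stimuli given at both times. They passed at adjusted p under 0.05 in 16 of 150 tests without and 17 with the plate in the model, 10 of them in both, against 3.58% of all tests.

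P3C, which signals through another Toll-like receptor than LPS, raised the IL1 agonists without the antagonists at 24 h. Il1a was 102, 1019 and 1341 CPM and Il1b 28.4, 609 and 972 CPM (6 cultures). Il1rn was 4.24, 23.6 and 69.6 CPM and Il18bp 0, 2.46 and 7.34 CPM, both within or near the untreated range. The log2 changes of Il1a and Il1b were 4.33 ± 0.60 and 5.07 ± 0.49, against 0.20 for Il1rn and −0.93 for Il18bp, which did not pass. Il18 fell, from a median of 5.06 to 0.786 CPM, by 1.29 ± 0.44 on the log2 scale (limma adjusted p = 0.020). In this comparison 16.9% of all genes were lower, and the call of Il18 was lost with the library pool in the model. With 1 of the 6 cultures at 12.9 CPM, its range overlapped that of untreated cultures.

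At 72 h of P3C the antagonist Il1rn was higher, at 6.99, 28.5 and 46.3 CPM against 0, 1.28 and 17.3 CPM in untreated cultures (log2 change 3.29 ± 0.50, limma adjusted p = 6.1e-09). Il1b was 3.10, 15.9 and 22.3 CPM against 0, 2.30 and 10.4 CPM, a log2 change of 2.16 ± 0.51 that also passed. Il18 was again lower, by 1.47 ± 0.46. Under TNFa and P3C together Il18 was 0, 0.724 and 6.14 CPM, against 0, 13.5 and 33.5 CPM in untreated cultures, and fell by 2.04 ± 0.43.

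Interferons and polyIC raised both antagonists. Il18bp at 24 h was 21.6, 48.6 and 118 CPM under IFNa, 30.6, 35.2 and 77.7 CPM under IFNb, and 39, 52.1 and 81.5 CPM under IFNg. All cultures of these 3 groups (8, 10 and 9) lay above the highest of 40 untreated cultures. The log2 changes were 3.10 ± 0.43, 2.91 ± 0.39 and 3.29 ± 0.41 (limma adjusted p = 1.3e-10, 2.6e-11 and 3.4e-13).

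Il1rn was 33.3, 95.4 and 375 CPM under IFNa, 115, 219 and 699 CPM under IFNb, and 64.3, 146 and 306 CPM under IFNg. The groups given IFNb and IFNg did not overlap with untreated cultures and the group given IFNa did. The log2 changes were 2.27 ± 0.42, 3.63 ± 0.39 and 2.85 ± 0.40 and passed. For polyIC they were 2.76 ± 0.42 (Il1rn) and 2.69 ± 0.43 (Il18bp), and 3.17 and 3.13 without replicate 5.

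Il18 rose under IFNa and IFNb, by 1.42 ± 0.39 and 1.80 ± 0.36 in log2 (limma adjusted p = 0.0046 and 2.4e-05), and under polyIC by 1.14 ± 0.39 (1.44 without replicate 5). Under IFNb it was 8.73, 23.1 and 49.4 CPM. Il1a under IFNb and IFNg was lower without the plate in the model, by 1.83 ± 0.49 and 1.74 ± 0.51, and did not pass with it (−1.08 and −0.84). With the plate in the model Il1b passed under polyIC (1.28). Without replicate 5, and with no plate term, it was −0.15.

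At 72 h Il18bp remained higher under IFNa (2.16 ± 0.47), IFNb (2.85 ± 0.60), IFNg (3.02 ± 0.50) and polyIC (1.60 ± 0.50), and of these 4 stimuli Il1rn was higher under IFNg only (2.10 ± 0.50). With the plate in the model Il1rn was lower under polyIC (−1.34). For Il1rn the change at 72 h was smaller than that at 24 h by 2.84 ± 0.71 for IFNb and 3.67 ± 0.65 for polyIC, both with adjusted p under 0.05. Il1b was 0.403, 21 and 108 CPM at 72 h of IFNg (6 cultures), a log2 change of 2.67 ± 0.51 (limma adjusted p = 9.4e-06) that overlapped with untreated cultures. Among the 6, Il18bp of 1 culture was 7.73 CPM and of the others at least 124 CPM.

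The highest Il18bp levels were reached with IFNg in combination. With LPS_lo and IFNg for 72 h Il18bp was 197, 269 and 330 CPM (7 cultures), whereas LPS_lo alone gave 9.85, 27 and 48.0 CPM (11 cultures). The groups did not overlap, and the difference was 3.03 ± 0.54 in log2 (limma adjusted p = 4.3e-06). With TNFa and IFNg Il18bp was 21, 163 and 397 CPM (8 cultures). Il1rn was also higher with LPS_lo and IFNg than with LPS_lo alone, at 21.1, 34.1 and 79.3 CPM against 0.212, 11.7 and 24.8 CPM (2.09 ± 0.53). With LPS_lo and polyIC it was 36.3, 42.4 and 90.8 CPM, a difference of 2.39 ± 0.53 that passed (limma adjusted p = 0.023) but not with the plate in the model (2.03, adjusted p = 0.072 by limma).

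Among all comparisons of an added agent with its base stimulus, 17 of 150 tests were higher and 10 lower, against 2.34% and 2.12% of all tests, and 21 and 14 with the plate in the model. Those with the same base share its cultures. Whether the agent's change on its base stimulus differed from its change alone was also tested, and passed in 15 of 150 tests without and 18 with the plate, 13 in both, against 3.86% of all tests. Leaving out cultures under 2 M reads reduced the higher calls from 17 to 11.

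IL10, IL4 and norepinephrine added to LPS_lo lowered Il1b, and Il1rn did not pass in these comparisons without the plate in the model. LPS_lo for 72 h gave Il1b levels of 4.54, 26.4 and 38.8 CPM. With IL10 the 5 cultures were at 0, 0.275, 0.636, 0.778 and 2.04 CPM, with IL4 at 0, 0.49, 0.665, 1.21 and 1.47 CPM, and with norepinephrine 3 cultures were at 1.28, 1.33 and 1.59 CPM. No culture of these groups reached the lowest LPS_lo culture.

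The differences in Il1b were −3.92 ± 0.60 for IL10, −3.87 ± 0.60 for IL4, −3.61 ± 0.60 for IL4, IL10 and IL13 together and −3.36 ± 0.73 for norepinephrine (limma adjusted p = 5.3e-07, 1.2e-07, 5.0e-07 and 0.0027). Il1rn was 8.14, 16.3 and 45.1 CPM with IL4, against 0.212, 11.7 and 24.8 CPM with LPS_lo alone, and did not pass (1.01 ± 0.59). With the plate in the model it was higher with IL4 (1.76) and with the 3 cytokines together (2.30). Against untreated cultures Il1rn was higher under LPS_lo with IL4 by 2.88 ± 0.54 (limma adjusted p = 9.1e-06), and under IL4 alone by 2.26 ± 0.67 in 3 cultures. Under LPS_lo with IL13 Il1b was higher than in untreated cultures, by 2.12 ± 0.55.

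At 24 h, resveratrol on LPS_lo lowered the antagonist Il1rn. Il1rn was 17.2, 49.7 and 106 CPM (8 cultures) against 480, 630 and 788 CPM, with no overlap, a difference of −3.64 ± 0.57 (limma adjusted p = 2.1e-06). Il18 was lower too, by 2.29 ± 0.52. Il1b was 46.1, 115 and 329 CPM against 206, 330 and 638 CPM, a difference of −1.60 ± 0.58 that passed only with the plate in the model (−1.69, limma adjusted p = 0.023).

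PGE2 and TNFa together gave the highest Il1b of 72 h. Il1b was 99.2, 482 and 727 CPM with both (8 cultures), 2.34, 17.4 and 33.7 CPM with PGE2 alone (8 cultures), and 0, 6.07 and 10.2 CPM in the 3 cultures with TNFa alone. Every culture given both lay above every culture given either agent and above untreated cultures (0, 2.30 and 10.4 CPM). The log2 change against untreated was 6.64 ± 0.45 (limma adjusted p = 2.8e-39) for both and 2.23 ± 0.45 for PGE2. The summed level of 9 neutrophil markers was also higher with both, at 41.3, 120 and 791 CPM, the last the highest of all 784 cultures, against 2.71, 20.2 and 156 CPM in untreated cultures and 9.61, 21.1 and 58.8 CPM with PGE2. The sum was mostly Mmp8 (0.388, 63.4 and 546 CPM), S100a8 (9.11, 30.7 and 201 CPM) and Csf3r. Camp was at 0, 4.30 and 9.32 CPM with both agents. It was at 0 CPM in all untreated cultures and in all cultures given PGE2 or TNFa alone. The neutrophil markers S100a9, Ly6g, Ngp and Retnlg were at 0 CPM in all 8 cultures given both. The part of neutrophils in the Il1b level was not tested. The antagonist Il1rn did not pass with both, at 0.672, 4.41 and 27.4 CPM, and Il1a changed by 1.93 ± 0.56.

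The change that PGE2 gave on TNFa exceeded its change alone by 3.97 ± 0.88 for Il1b and 4.04 ± 1.09 for Il1a (limma adjusted p = 1.0e-04 and 0.0016). That test rests on the 3 shallow cultures with TNFa alone, and 4787 of 16935 genes passed it. On both plates that held the combination Il1b was high, at 552 to 727 CPM on one and 99.2 to 412 CPM on the other, against 12.9 to 33.7 and 2.34 to 25.3 CPM with PGE2 alone on the same plates.

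PGE2 moved the agonist and the antagonist in opposite directions on P3C. With P3C and PGE2 for 72 h Il1b was 36.8, 82.1 and 142 CPM (7 cultures), and with P3C alone 3.10, 15.9 and 22.3 CPM, with no overlap. Il1rn was 0, 3.53 and 13.5 CPM against 6.99, 28.5 and 46.3 CPM. The differences were 2.45 ± 0.62 for Il1b and −2.66 ± 0.61 for Il1rn (limma adjusted p = 0.0047 and 0.0012). On TNFa and P3C the differences were 2.30 ± 0.60 and −2.0 ± 0.59. When IFNb was further added, Il1rn was higher again by 2.54 ± 0.59 and Il18bp by 1.87 ± 0.59.

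**Figure D4:**
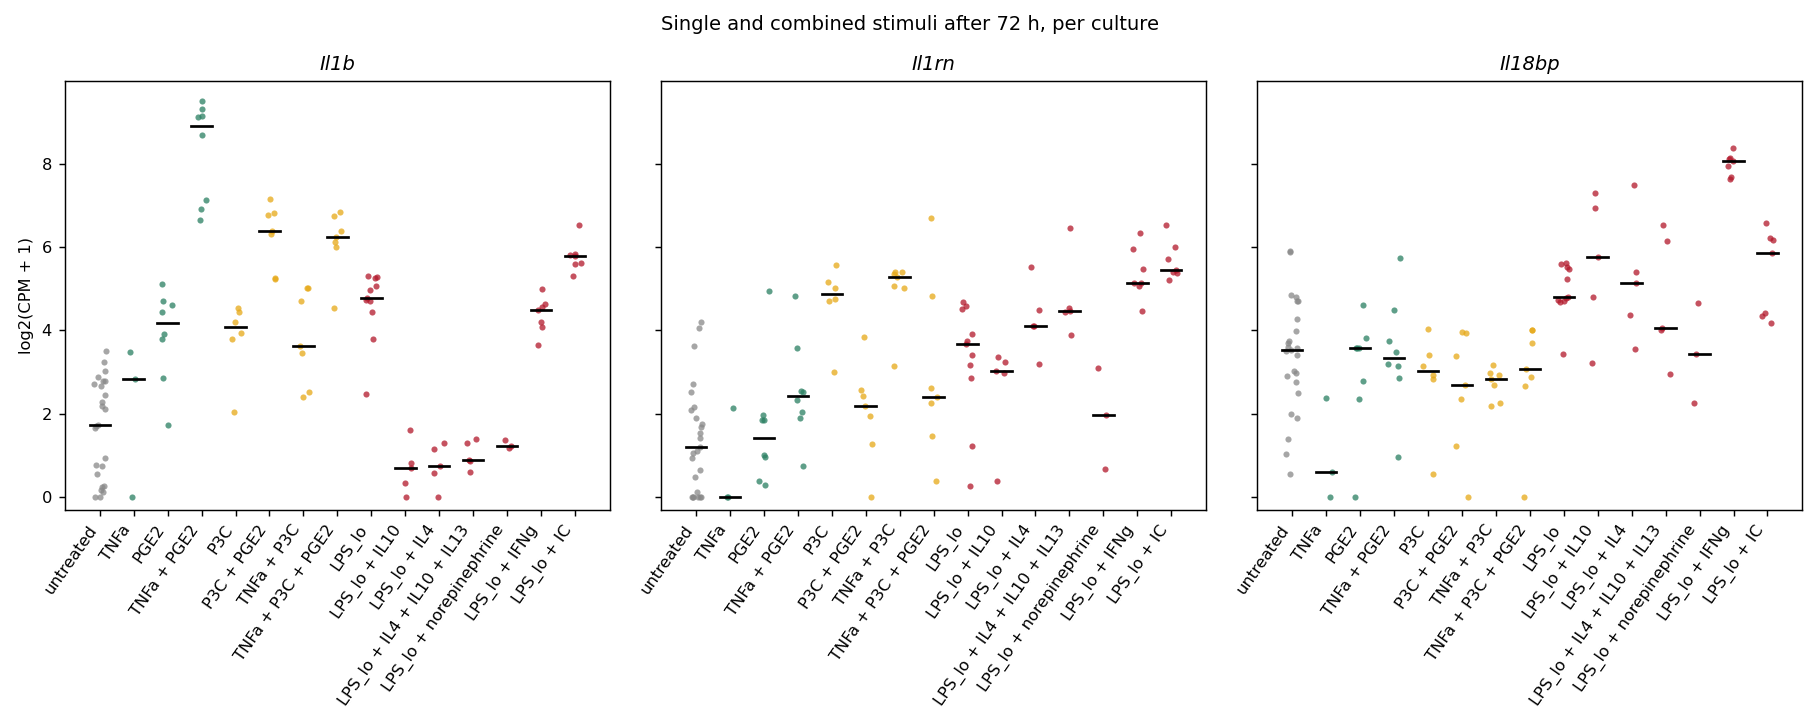
Levels of Il1b, Il1rn and Il18bp, as log2(CPM + 1), in single cultures after 72 h without stimulus or with single and combined stimuli. Each point is a culture and each line a group median, and the highest Il1b stands with TNFa + PGE2 (median 482 CPM) and the highest Il18bp with LPS_lo + IFNg (median 269 CPM).

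ATP raised the antagonist Il1rn. It was 58.1, 67 and 96.8 CPM at 24 h (9 cultures), above all untreated cultures, a log2 change of 1.81 ± 0.40 (limma adjusted p = 0.0042). At 4 h the 5 cultures were at 27.3, 259, 265, 336 and 354 CPM, a change of 3.20 ± 0.52. The IL1 agonists were also higher at 4 h of ATP without the plate in the model. Il1a was at 20, 162, 199, 245 and 282 CPM and Il1b at 21.4, 60.3, 71.6, 77.6 and 102 CPM. Their changes of 2.04 ± 0.65 and 2.47 ± 0.53 did not pass with the plate in the model (0.64 and 1.07), whereas that of Il1rn did (3.14). With LPS_hi at 4 h, added norepinephrine gave Il1rn levels of 327, 580 and 711 CPM and added ATP a difference of 1.86 ± 0.61. The differences from LPS_hi alone, 1.74 ± 0.57 for norepinephrine, passed only with the plate in the model.

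Some agents lowered Il18bp at 72 h. Untreated Il18bp was 0.478, 10.6 and 58.9 CPM, and under IL10 it was 0, 0.706 and 20.6 CPM (6 cultures), a log2 change of −2.02 ± 0.50 (limma adjusted p = 0.0056). It was also lower under IL13 (−1.58 ± 0.50), under IL4, IL10 and IL13 together (−2.26 ± 0.50), under GABA (−1.59 ± 0.45), under GMCSF (−1.55 ± 0.47) and in the 3 cultures with TNFa (−2.42 ± 0.68). All 6 ranges overlapped that of untreated cultures, and all 6 passed with the plate in the model. With the library pool in the model only 4 tests of Il18bp were lower at 72 h. GMCSF at 72 h raised Il1rn by 2.65 ± 0.47 and Il1a by 1.84 ± 0.59. At 24 h Il1a and Il1b were higher under GMCSF by 1.91 ± 0.53 and 1.64 ± 0.43, and neither passed with the plate in the model (0.96 and 0.65).

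Il1r2 was hardly detected in culture. It was at 0 CPM in 740 of 784 cultures and above 5 CPM in 6, and it passed in no comparison with untreated cultures. With the plate in the model it passed under Valproic Acid at 24 h (2.39), where 5 of 6 cultures were at 0 and 1 was at 31 CPM.

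Of 32 other genes of the IL1 and IL18 pathway, 25 were measured well enough for the fit in cultures. Under LPS_hi at 24 h 7 were higher and none was lower at a log2 change of 1 or more. Over all 16935 genes 889 were higher and 1848 lower. Among the genes that were lower at adjusted p under 0.05 but fell short of that change were Pycard (−0.99 ± 0.20) and Irak1 (−0.80 ± 0.10). The median log2 change of the 25 was 0.14, against −0.14 over all genes. The 7 included 5 of 8 processing genes: Casp1, the protease that cleaves both precursors (1.77 ± 0.17), Casp4 (2.06 ± 0.25), the inflammasome sensors Nlrp3 (2.30 ± 0.38) and Nlrc4 (1.71 ± 0.35), and Gsdmd, whose product forms membrane pores (1.21 ± 0.20). The others were the adaptor Myd88 (1.70 ± 0.21) and Irak3, a negative regulator of this signalling (3.92 ± 0.25). None of 4 receptor genes in the fit passed without the plate in the model. Il1rl1, at −0.98 ± 0.31, passed as lower with it (−1.35, limma adjusted p = 5.6e-06). Under P3C 3 pathway genes were higher and 5 lower, where 3.22% and 16.9% of all genes were. Under IFNg 5 were higher and 0 lower (4.41% and 3.67% of all genes), and under IFNb 4 and 1 (3.46% and 3.82%). These counts are from the model without a plate term.

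Over the 97 culture groups, the 5 genes whose mean levels ran most like each member were as follows. For Il1a they were Il6 (Pearson r = 0.92), Dusp2, Il1b (0.90), Adora2a and Cxcl3, and for Il1b they were Cxcl3 (0.93), Ptges, Traf1, Il1a and Adora2a. For Il18bp they included the interferon-responsive gene Ifi205 (0.85), Fcgr4, Iigp1 and Psme1, and for Il18 they were BC094916 (0.68), Nod1, Tnfsf10, Tmcc3 and Dtx3l. Il1rn was nearest to Il1a (0.80), followed by Glipr2, Fcer1g, Rrbp1 and Inhba. For Il1r2, at 0 in most cultures, the highest r was 0.44. These correlations describe group means that share plates and lots.

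In mice, 4 h of LPS raised the agonists Il1a and Il1b and the antagonist Il1rn, and Il18 did not pass the test. Il1a was 147, 157, 178 and 198 CPM in the 4 PBS mice and 1386, 1716, 1807 and 1904 CPM in the 4 LPS mice. Il1b was 15.4, 16.7, 20.1 and 24.1 CPM against 573, 626, 755 and 894 CPM, and Il1rn 5.80, 6.67, 7.34 and 8.70 CPM against 122.5, 160, 170 and 196 CPM. For all 3 genes every LPS mouse lay far above every PBS mouse.

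The log2 changes in LPS mice were 3.32 ± 0.17 for Il1a, 5.15 ± 0.20 for Il1b and 4.32 ± 0.19 for Il1rn (limma adjusted p = 2.6e-07, 5.4e-08 and 1.0e-07). Among 9012 genes tested, 8.2% were higher at adjusted p under 0.05. The median over all genes was −0.19 in log2, or −0.02 with median-ratio scaling. Il18 was 14.3, 16.8, 21.6 and 31.9 CPM against 15.8, 17.4, 19.1 and 19.5 CPM, a log2 change of −0.17 ± 0.23 that did not pass. Il18bp, at 0.198 to 4.64 CPM in PBS and 2.04 to 3.27 CPM in LPS mice, was below the filter of 5 CPM in at least 4 mice.

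Il1r2 was 0.196, 0.433, 0.594 and 1.45 CPM in PBS mice and 6.56, 12.6, 15.1 and 16.9 CPM in LPS mice. It passed that filter through the LPS mice alone and so had to differ, and its log2 value of 3.03 ± 0.30 is given as a description. Among 9 neutrophil markers, 8 were tested and 4 were higher in LPS mice, and their summed level was 153 to 227 CPM in PBS and 299 to 445 CPM in LPS mice. Of 5 monocyte markers 3 were higher and 1 lower (summed 26.6 to 60.8 and 62.4 to 120 CPM). Il1r2 and Il1b are also transcribed by neutrophils, and the part of these cells in the results was not tested.

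Of the 19 pathway genes tested in these mice, 6 were higher and none was lower: Casp4 (3.01 ± 0.18), Myd88 (1.76 ± 0.14), Irak3 (1.74 ± 0.16), Traf6 (1.19 ± 0.15), Nlrp3 (1.01 ± 0.21) and the IL36 ligand gene Il1f9 (0.90 ± 0.24). Over all genes 8.2% were higher. The median log2 change of the 19 was 0.01. Casp1 was at −0.13 ± 0.17 and did not pass.

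In aging, only Il1b of the 3 genes that entered the fit passed. Il1b was 1.82, 2.74 and 7.46 CPM (lowest, median, highest) in 4 young mice of the first library series and 3.95, 9.74 and 14.5 CPM in 4 old mice, and in the second series 1.15, 3.85 and 6.92 CPM in 7 young and 3.5, 7.34 and 15.1 CPM in 9 old mice. The ranges overlapped in both series. The filter asked for more than 5 CPM in at least 11 mice, and both medians of young mice were under 5 CPM. Il1b thus entered the fit mainly through old mice, so its test is not independent of the filter. The log2 change with the series in the model was 0.92 ± 0.24 (limma adjusted p = 0.015), where 6.4% of 9632 genes were higher. Within the first series it was 1.13 (limma adjusted p = 0.46) and within the second 0.82 (limma adjusted p = 0.077), so neither series alone passed.

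Il1a (0.12 ± 0.12) and Il18 (−0.19 ± 0.14) did not pass. Il1rn, Il1r2 and Il18bp had too low values for the fit. In a fit without the filter Il1r2 and Il18bp passed, at 1.20 ± 0.30 and 1.14 ± 0.26 (limma adjusted p = 0.035 and 0.018), and Il1b did not (adjusted p = 0.066 by limma). In the second series alone Il1rn and Il18bp entered the fit through old mice only. The highest young mouse of that series was at 3.63 CPM of Il1rn and 3.57 CPM of Il18bp, under the filter of 5 CPM. Their log2 values of 1.03 ± 0.30 and 0.94 ± 0.27 are therefore given as a description. Neutrophil markers were higher in old mice for 7 of 9 genes, with a median summed level of 738 CPM in young and 1379 CPM in old mice, and monocyte markers for 4 of 5. Their part in these values was not tested. Of 20 pathway genes tested in aging, none was higher and Nlrp3 (−0.43 ± 0.09), Tab2 (−0.32 ± 0.09) and Casp8 (−0.23 ± 0.07) were lower, where 3.27% of all genes were lower.

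**Figure D5:**
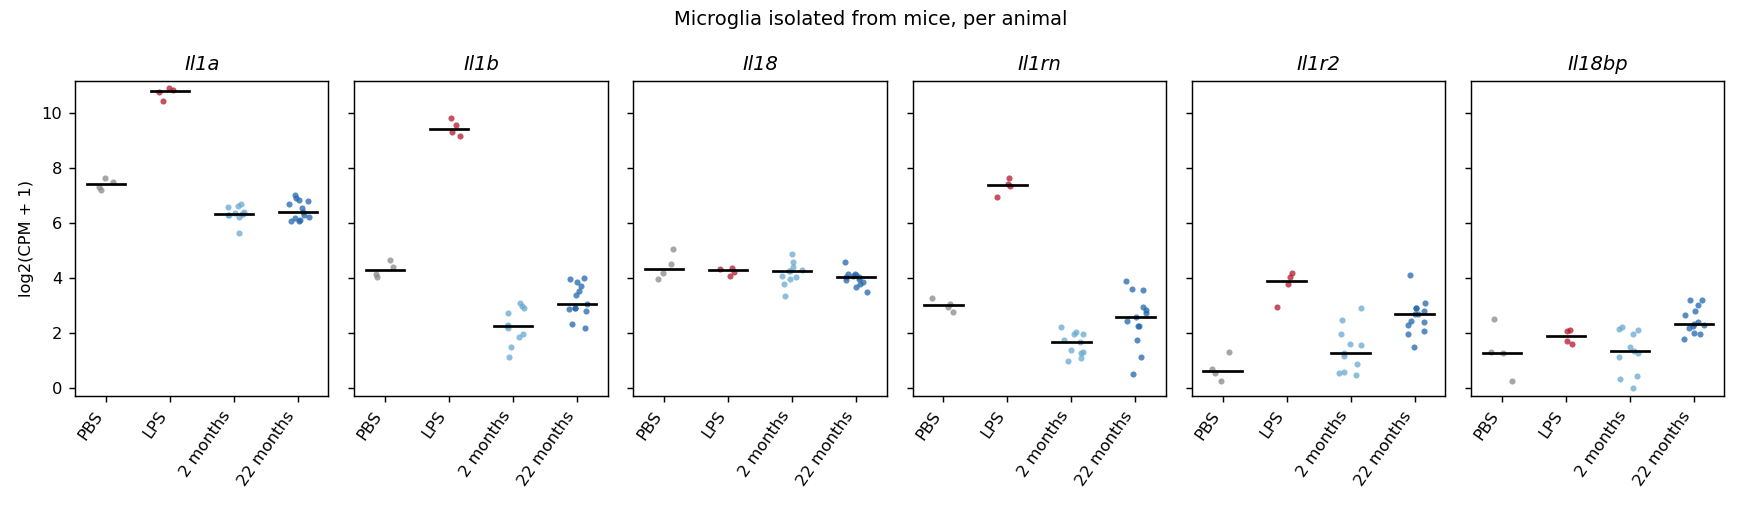
Levels of the 6 genes, as log2(CPM + 1), in microglia of single mice: 4 PBS and 4 LPS mice (females, 4 h) and naive males of 2 months (11) and 22 months (13). Each point is a mouse and each line a group median, and the LPS mice stand apart for Il1a, Il1b, Il1rn and Il1r2 but not for Il18.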

How the data were processed

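The 784 cultures and 32 mice were sequenced at the 3′ end. The deposited values are CPM: per the study's methods the authors ran Salmon 0.7.1, divided reads per gene by all mapped reads of the sample, and left out cultures of low depth. The values were taken as CPM, since no gene length enters; they are normalized, so no count model was used. Ensembl annotation is named in the methods and mm8 in the submitters' processing notes. Groups followed the labels. Replicates are wells of commercial lots, or mice, so p-values for cultures measure the spread between wells, which may be technical.

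limma 3.58.1 (R 4.3.3) was fitted to log2(CPM + 1), which understates changes of low genes: once to 783 cultures in 97 groups (16935 genes above 5 CPM in at least 4 cultures), and to LPS mice (9012 genes) and aging mice (9632 genes, library series as covariate). The culture labelled LPS_hi at the lower dose was left out. p-values were adjusted by Benjamini-Hochberg over all genes of a comparison. Cultures passed at adjusted p under 0.05 and an absolute log2 change of at least 1, mice at adjusted p under 0.05. In data simulated for LPS_hi against untreated at 24 h (11504 genes), 50% of genes changed by 1 in log2 and 100% of those changed by 2 were recovered. Alternatives were the culture plate or library pool in the model, other pseudocounts, filters and scalings, and leaving out each replicate of small groups. The 6 genes in every comparison, the 5 nearest genes of each and a list of 32 pathway genes were to be named; an item among the nearest genes is not reported here. These lists and the marker lists were chosen with earlier results of these data known.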

Additional observations from a re-analysis of the deposited data

Results flagged for a closer look

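For 10 gene and stimulus pairs the change at 72 h differed from that at 24 h at limma adjusted p under 0.05, both without and with the culture plate in the model. The change was smaller at 72 h for Il1rn under polyIC (−3.67 in log2, −4.63 with the plate), IFNb (−2.84) and LPS_lo (−3.07). It was also smaller for Il1a under LPS_lo (−2.76), for Il18 and Il18bp under LPS_hi (−2.33 and −1.78) and for Il1b under P3C (−2.91, −3.94 with the plate). It was larger at 72 h for Il1b under IFNg (3.96; 2.52 with the plate), Il1rn under P3C (3.09) and Il18 under TNFa (2.15), the last resting on 3 shallow cultures.

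In 11 of 58 gene and group pairs tested, 1 culture lay far from the others of its group. The gap was measured in CPM, not in log2. The rule's chance rate of 1 in 20 holds for normally distributed values, which was not tested for CPM, so the count is not read against it. For Il18 these were the highest cultures under IFNb at 24 h (49.4 CPM), LPS_lo at 24 h (45.3 CPM), P3C at 24 h (12.9 CPM) and LPS_hi at 4 h (93.7 CPM). For Il1rn they were the highest culture under IFNa at 24 h (375 CPM), the lowest under ATP at 4 h (27.3 CPM, the next 259 CPM) and the highest under P3C + PGE2 at 72 h (13.5 CPM). For Il18bp they were the highest under IFNa at 24 h (118 CPM), TNFa + IFNg at 72 h (397 CPM) and IL10 at 72 h (20.6 CPM), and the lowest under IFNg at 72 h (7.73 CPM, the next 124 CPM).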

How the results depend on the processing

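Of 208 gene and comparison pairs that passed, recomputed under the alternatives in 2011 values, 1683 kept direction and call, 327 kept only the direction and 1 changed direction: Il1b under IL10 at 24 h with the library pool in the model (0.078 in log2). For the other values that lost the call the cause was not tested. Lower calls at 24 h (22) were 1 with the plate in the model, 0 with the pool, 9 without cultures under 2 M reads and 0 by the rank-sum test. At 72 h, 62 higher calls became 13 by the rank-sum test, and 13 lower calls became 8 with a pseudocount of 5, 6 with a separate fit for each time and 0 by the rank-sum test. The single lower call of 4 h was lost (0) with the plate, with the pool, with a pseudocount of 5, without the filter, without shallow cultures and by the rank-sum test. Of added agents, 17 higher calls became 11 without shallow cultures and 0 by the rank-sum test, and 10 lower calls became 16 with the pool and 0 by the rank-sum test. The 3 dose calls became 5 with the plate, the pool or a pseudocount of 5, and 0 by the rank-sum test. That test was adjusted by Bonferroni over all genes. Its threshold cannot be reached in nearly all comparisons of added agents, in the 24 h dose comparison or in 72 h groups of 3 to 5 cultures. Losses there were fixed by group size and carry no information on the calls. In mice the rank-sum test gave 0 for LPS (4, of which Il1r2 had passed the filter through the LPS mice alone) and for aging (1), and its Bonferroni threshold over all genes cannot be reached with 4 against 4. The single aging call, Il1b, had entered the fit mainly through old mice. The aging count was 2 without the filter, 0 with a minimum log2 change of 1, 0 in the first series alone and 2 in the second. These 2 were Il1rn and Il18bp, which had entered that fit through old mice alone. Leaving out single replicates of small groups gave 60 to 63 higher and 11 to 14 lower calls at 72 h, 20 to 21 and 1 at 4 h, 13 to 18 and 9 to 11 for added agents, and 4 and 0 in LPS mice. The polyIC group without replicate 5 and the plate term in the tests of differences were chosen after seeing the data. No paired analysis was possible because replicate numbers only follow the order of the samples. Il1r2 was at 0 CPM in 740 of 784 cultures, and the part of depth in this was not tested.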
